A study of Mus musculus with 8 samples.

Results

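The genes described here are 10 immediate early genes of the AP-1, Egr and Nr4a families: *Fos*, *Fosb*, *Jun*, *Junb*, *Jund*, *Egr1*, *Egr2*, *Nr4a1*, *Nr4a2* and *Nr4a3*. They were chosen by symbol, and all 10 were among the 48321 gene symbols listed for each library. RNA had been sequenced from sorted CD8+ T cells, the cytotoxic T-cell lineage, of C57BL/6 mouse spleen. The 8 libraries formed 4 groups of 2, labelled WT or KO at day 0 or day 5 of in vitro culture. KO stood for floxed *Satb1* (*Satb1* F/F) with *E8I-cre*, a recombinase transgene active in mature CD8-lineage cells, whereas the alleles of the WT mice were given only as WT. Age, sex and the stimulating agent were not given in the sources used here, and it was not stated whether libraries 1 and 2 of a group came from separate mice, so p-values measure the spread between these libraries only.

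Immediate early genes are transcribed within minutes of a signal from existing transcription factors, without new protein synthesis, and their products drive the next wave of transcription. Fos and Jun proteins pair through leucine zippers to form AP-1, Egr proteins bind GC-rich DNA through zinc fingers, and Nr4a proteins are orphan nuclear receptors that act without a known hormone. In T cells all 3 families respond to the antigen receptor, *Nr4a1* expression is a widely used readout of receptor signaling, and Egr2 and Nr4a proteins are known for restraining T cells after repeated or incomplete stimulation.

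Totals of counted reads per library ranged from 4170126 to 11117971, so that 1 read was worth 0.0858 to 0.241 CPM, the unit of level used here, which is the count scaled to a common library total. The CD8 T-cell markers *Cd3d*, *Cd3e*, *Cd3g*, *Cd8a*, *Cd8b1* and *Lck* summed to between 8696 and 14384 CPM in every library, and the CD4 T-cell markers *Cd4* and *Zbtb7b* to at most 2.998 CPM. *Satb1* itself went against the label at day 0, with 97.8 and 91.6 CPM in the libraries labelled WT and 144 and 125 CPM in the libraries labelled KO (log2 fold change 0.51, edgeR adjusted p = 0.125). At day 5 it was lower in KO, at 56.5 and 62.3 CPM against 96.5 and 115.9 CPM in WT (log2 fold change -0.84, adjusted p = 0.0162), a call lost without WT replicate 2 or either KO library of day 5 (adjusted p up to 0.174). The deleted segment was not given in the sources used here, and a count over the whole gene also takes reads outside it, so this count is a weak check of the labels and every genotype comparison is one between libraries labelled KO and WT.

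Promoter sequences are shown for the 2 members that fell most in culture, *Egr2* and *Nr4a1*, for *Nr4a2*, which rose, and for *Fos*, the tested member with the largest genotype difference at day 0. Each is the RefSeq sequence (GRCm38.p6) of the 250 bases before a transcription start, written 5′ to 3′ on the gene's strand. Capitals mark the letters of the motifs listed below the sequences. The *Egr2* stretch is chr10:67537619-67537868 (+), picked after the motif search from 5 annotated *Egr2* starts because it holds a CArG box that 2 further, overlapping windows share. The *Nr4a1* stretch is chr15:101266596-101266845 (+), that of *Nr4a2* chr2:57124004-57124253 (-) and that of *Fos* chr12:85473640-85473889 (+).
Egr2: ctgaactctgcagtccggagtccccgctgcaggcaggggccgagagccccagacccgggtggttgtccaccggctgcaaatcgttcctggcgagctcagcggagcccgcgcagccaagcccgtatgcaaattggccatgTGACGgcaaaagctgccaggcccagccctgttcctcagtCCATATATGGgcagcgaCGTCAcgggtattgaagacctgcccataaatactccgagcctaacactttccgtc
Nr4a1: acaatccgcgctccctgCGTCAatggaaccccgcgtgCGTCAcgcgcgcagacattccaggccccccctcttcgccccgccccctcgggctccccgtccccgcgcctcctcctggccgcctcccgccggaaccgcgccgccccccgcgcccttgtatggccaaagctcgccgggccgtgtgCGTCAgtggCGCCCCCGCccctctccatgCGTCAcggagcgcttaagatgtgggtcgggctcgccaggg
Nr4a2: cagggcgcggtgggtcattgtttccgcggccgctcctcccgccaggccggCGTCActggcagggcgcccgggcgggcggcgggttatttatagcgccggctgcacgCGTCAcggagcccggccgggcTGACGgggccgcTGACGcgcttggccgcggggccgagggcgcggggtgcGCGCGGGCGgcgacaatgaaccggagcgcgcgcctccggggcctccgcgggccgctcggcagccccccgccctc
Fos: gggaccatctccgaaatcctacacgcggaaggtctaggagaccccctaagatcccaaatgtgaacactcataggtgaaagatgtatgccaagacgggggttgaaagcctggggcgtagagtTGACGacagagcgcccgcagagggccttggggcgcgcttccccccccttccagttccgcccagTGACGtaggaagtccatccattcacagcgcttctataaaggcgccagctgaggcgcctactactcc

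Both strands were searched for 6 motifs in RefSeq windows from 250 bases before to 50 bases after each start. Windows of 9 members were searched, with *Egr1* not used here. The half-site of the cAMP response element, TGACG, was in windows of 7 of the 9 members and in 20.8% of all 32851 promoter windows. The whole element, TGACGTCA, was in no member's window and in 1.79% of all windows. The CArG box, the sequence bound by serum response factor, was found only in *Egr2* windows among the 9 members, from -72 to -63 in the sequence above, and in 1.63% of all windows. The Egr site, GCGNGGGCG, was in the windows of *Fosb*, *Nr4a1* and *Nr4a2* and in 5.55% of all windows. The AP-1 site, TGANTCA (7.81% of all windows), and the Nr4a monomer site, AAAGGTCA (1.51%), were in no member's window. The half-site lies inside the whole element, and in the printed stretches no matches overlapped. These matches describe letters in short windows around annotated starts, and the window of *Jund* lies ahead of the gene start in the GENCODE annotation used for coordinates.

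At day 0 the members' summed level per exon length, as CPM divided by the exon length in kilobases (RPKM), was 33.7 to 39.3 in the 4 libraries. At day 5 it was 9.11 to 12.1 in the 4 libraries. *Egr2* alone made up 39.5% to 59.2% of the sum at day 0 and 2.77% to 4.70% at day 5. The 5 Fos and Jun genes moved from 17.002% to 31.2% of the sum at day 0 to 58.5% to 78.5% at day 5, although their own summed level was 6.67 to 11.2 RPKM at day 0 and 5.33 to 9.53 RPKM at day 5. The makeup of the set thus passed from Egr-dominated to Fos and Jun-dominated while its total was lower in all 4 libraries of day 5.

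**Figure D1:**
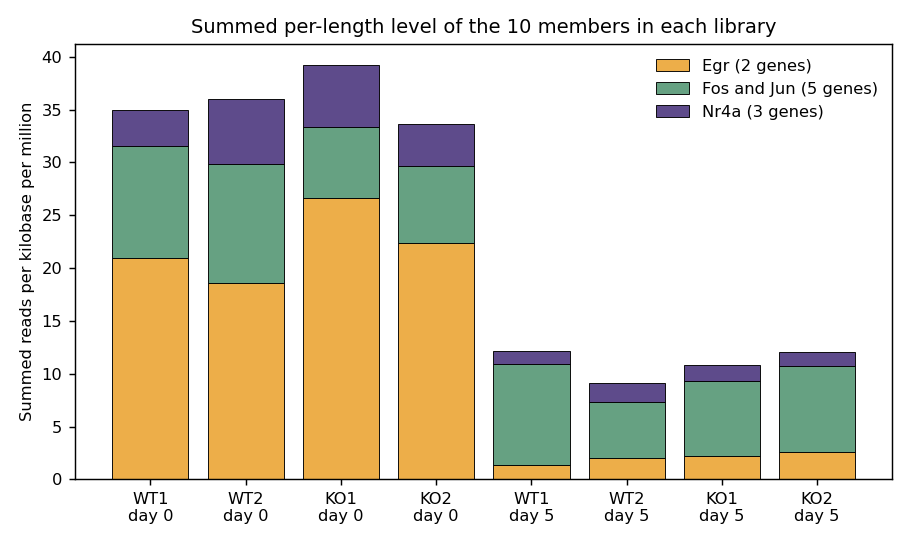
Stacked bars give the summed RPKM of the Egr genes (*Egr1*, *Egr2*), the 5 Fos and Jun genes and the 3 Nr4a genes in each of the 8 libraries. The bars reach 33.7 to 39.3 RPKM at day 0 and 9.11 to 12.1 RPKM at day 5, and the Egr segment shrinks from the largest at day 0 to at most 2.61 RPKM at day 5.

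By mean RPKM, the order of the members in WT at day 0 was *Egr2* (15.5 ± 1.77, SD, n = 2), *Fos* (8.16 ± 0.146), *Nr4a1* (4.52 ± 1.71), *Egr1* (4.29 ± 0.140), *Junb* (1.73 ± 0.0830) and *Jund* (0.782 ± 0.0443), followed by *Jun*, *Nr4a3*, *Nr4a2* and *Fosb* below 0.25. *Nr4a1* and *Egr1* overlapped there, while *Egr2*, *Fos*, *Egr1*, *Junb* and *Jund* were each separate from the next gene in the order. In KO at day 0, *Egr2* (20.8 ± 3.46 RPKM) was again first and separate, and *Nr4a1* (4.61 ± 1.496), *Fos* (3.91 ± 0.561) and *Egr1* (3.69 ± 0.399) followed with each overlapping its neighbour. At day 5, *Fos* had the highest mean in both genotypes, at 3.12 ± 1.52 RPKM in WT and 2.98 ± 0.678 in KO, with *Junb* next at 1.95 ± 0.826 and 2.44 ± 0.623. *Egr2* was then the 8th of the 10 genes in both genotypes. In WT at day 5 each of the first 7 genes overlapped the next, so that the order of these neighbours is not resolved by 2 libraries a group. Both *Fos* libraries lay above both libraries of every gene after *Junb*.

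The question of the culture comparison was how each gene's transcript level differed between cells taken before culture and cells after 5 days, within a genotype. Of the 10 members, 8 passed the filter on low counts and entered the edgeR quasi-likelihood fit over 12597 genes, and *Fosb* and *Nr4a3* did not. In WT, 4 of the 8 tested members fell (*Fos*, *Egr1*, *Egr2*, *Nr4a1*) and 1 rose (*Nr4a2*), where 48.3% of all tested genes were called, 24.7% higher and 23.6% lower. In KO, 3 fell (*Egr1*, *Egr2*, *Nr4a1*) and 2 rose (*Jun*, *Nr4a2*), where 50.2% of all tested genes were called, 26.2% higher and 24% lower. Beside these shares, 5 called of 8 in each genotype is not read as a result about the set, and the size and direction of the changes differed between its members. Within WT, 35.7% of all tested genes lay higher at day 5 without overlap and 38% lower, and within KO 38.2% and 39.7%. A lack of overlap between the days, given below for single members, is therefore common. The median log2 fold change of the 8 tested members was -0.58 in WT and -0.05 in KO, beside -0.04 and -0.05 over all tested genes. *Jun* and *Nr4a2* passed the filter only through day 5 and *Egr2* only through day 0, so these counts and medians describe the tested members and support nothing. Scaling by library totals alone moved the median of all genes to -0.17 in WT and -0.23 in KO, and in KO it took the higher share of all calls from 52.1% to 41.2%. Under that scaling the called members kept their direction and the 4 falls in WT and 3 in KO were called, but no called rise passed the threshold: *Nr4a2* in WT was at 2.47 (adjusted p = 0.0517, beside 2.61), and *Jun* and *Nr4a2* in KO were at 2.12 and 2.05 (0.0680 and 0.0624, beside 2.31 and 2.23).

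**Figure D2:**
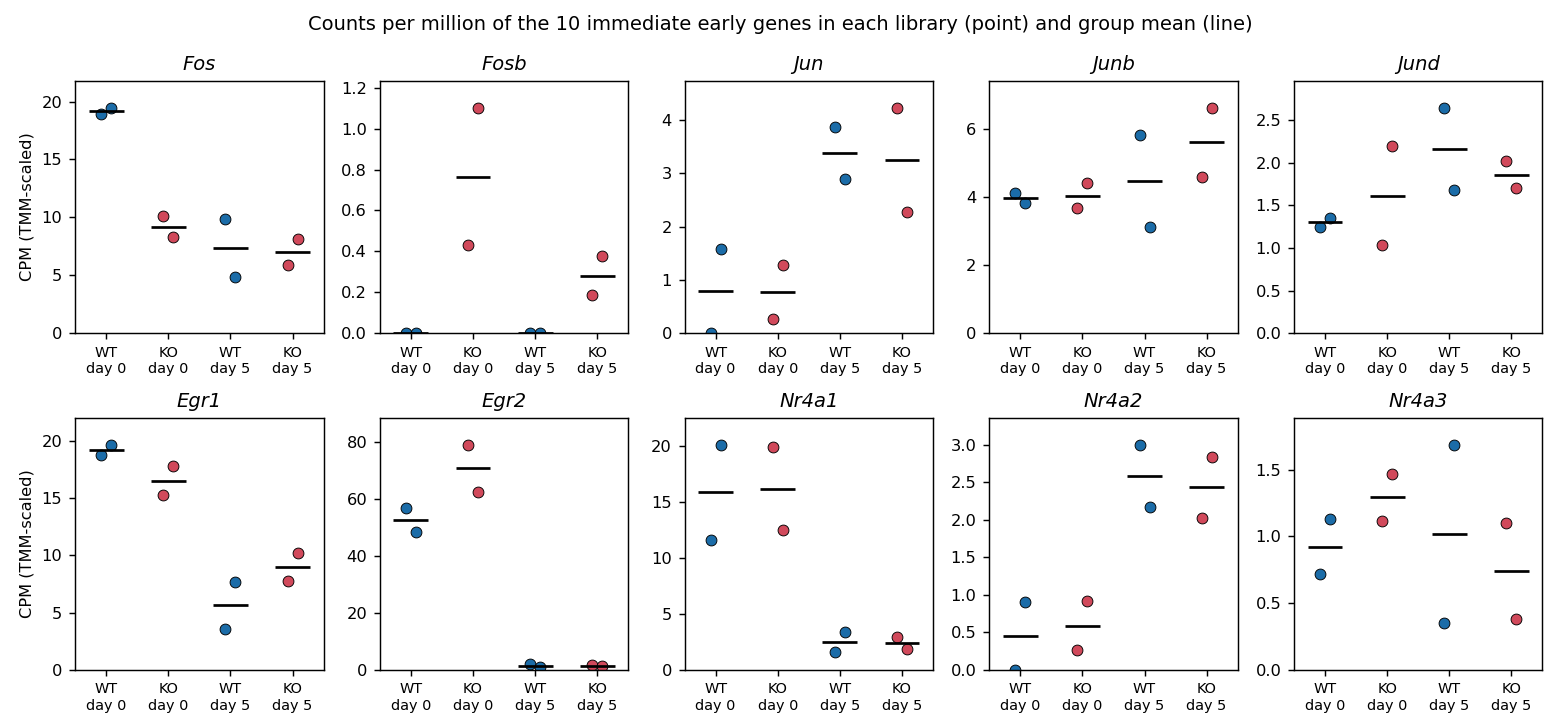
Each panel plots CPM, on a linear axis from 0 with its own scale, for 1 gene in the 8 libraries, with a point per library and a line at each group mean. *Egr2* drops from 48.4 to 79.0 CPM at day 0 to 0.964 to 1.94 CPM at day 5, *Nr4a2* and *Jun* lie higher at day 5, and *Fos* at day 0 is 19.0 and 19.4 CPM in WT against 10.1 and 8.26 CPM in KO.

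*Egr2* (chr10:67535475-67542188, + strand), a zinc finger regulator, showed the largest change of any member. In WT it was at 56.9 and 48.4 CPM at day 0 and at 1.94 and 0.964 CPM at day 5. In KO it was at 79.0 and 62.4 CPM at day 0 and at 1.66 and 1.14 CPM at day 5. The 2 days did not overlap in either genotype, and the day 5 values rested on 15 reads in WT and 15 in KO. It fell 34.3-fold in WT (log2 fold change -5.10, SE 0.31, edgeR adjusted p = 4.01e-08) and 50.0-fold in KO (-5.64, SE 0.30, adjusted p = 1.11e-08). Both calls held under all 20 alternatives, with log2 fold changes from -5.72 to -4.72 in WT and from -6.04 to -5.39 in KO. The gene passed the filter on low counts through day 0, the day where it is high, so the calls are conditional on that. Without the filter the changes were -5.12 and -5.69. The *Egr2* stretch printed above holds a CArG box, as do 4 of its 5 windows.

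*Egr1* (chr18:34859823-34864984, + strand), the founding member of that zinc finger family, fell less. In WT it was at 18.8 and 19.7 CPM at day 0 and at 3.53 and 7.71 CPM at day 5. In KO it was at 15.3 and 17.8 CPM at day 0 and at 7.73 and 10.2 CPM at day 5. All 4 libraries of day 0 were above all 4 of day 5. The fall was 3.52-fold in WT (log2 fold change -1.81, SE 0.33, edgeR adjusted p = 6.86e-04) and 1.83-fold in KO (-0.87, SE 0.31, adjusted p = 0.0305). The WT call held under all 20 alternatives, and the KO call under 16, being lost with DESeq2 (adjusted p = 0.0626), without KO day 0 replicate 2 (0.0963), without KO day 5 replicate 1 (0.204) and without KO day 5 replicate 2 (0.0563).

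*Nr4a1* (chr15:101254269-101274795, + strand), which encodes the orphan receptor Nur77, also fell in both genotypes. In WT it was at 11.6 and 20.1 CPM at day 0 and at 1.59 and 3.37 CPM at day 5. In KO it was at 19.9 and 12.5 CPM at day 0 and at 2.94 and 1.89 CPM at day 5. The days did not overlap, though replicates of day 0 differed from each other by more than the genotype means did. The fall was 6.55-fold in WT (log2 fold change -2.71, SE 0.45, edgeR adjusted p = 3.12e-04) and 6.73-fold in KO (-2.75, SE 0.43, adjusted p = 1.88e-04), and both calls held under all 20 alternatives.

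*Nr4a2* (chr2:57106830-57124003, - strand), the receptor Nurr1, went the other way at low levels. Its counts were 0 and 4 in WT and 3 and 5 in KO at day 0, and 17 and 9 in WT and 11 and 15 in KO at day 5. As CPM this was 0 and 0.904 in WT and 0.257 and 0.918 in KO at day 0, and 2.998 and 2.17 in WT and 2.02 and 2.84 in KO at day 5. All 4 libraries of day 5 were above all 4 of day 0. No day 0 library reached 10 counts, so the gene passed the filter on low counts through the day where it is high, and its call is conditional on that. The log2 fold change was 2.61 (SE 0.96, edgeR adjusted p = 0.0399) in WT and 2.23 (SE 0.85, adjusted p = 0.0449) in KO. Without the filter it was 2.59 in WT and 2.17 in KO. Adjusted p-values of that fit are not set beside those of the main fit. For *Egr2* in WT they went from 4.01e-08 to 2.67e-50 (edgeR) at nearly the same change. The counts of alternatives include that fit. The WT call held under 11 of 19 alternatives with adjusted p up to 0.249, and the KO call under 9 of 19 with adjusted p up to 0.275. The libraries whose removal ended a call were WT day 0 replicate 1 (WT call), KO day 0 replicate 1 (KO call) and all 4 of day 5 (both calls). With WT day 0 replicate 1 left out the WT change was 1.52, and with replicate 2 left out 7.03, fitted against a library at 0 and no bound. In KO it was 1.39 and 3.14 without replicate 1 or 2 of day 0.

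*Nr4a3* (chr4:48045153-48086447, + strand), the receptor Nor1 and the last of that family, had 4, 5, 13 and 8 counts at day 0 and 2, 7, 6 and 2 counts at day 5, in the order WT replicates 1 and 2, then KO replicates 1 and 2. Its mean was 0.923 ± 0.294 CPM in WT and 1.29 ± 0.250 CPM in KO at day 0, and 1.02 ± 0.943 and 0.741 ± 0.513 CPM at day 5 (SD, n = 2). In a fit without the filter on low counts no comparison called it.

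*Fos* (chr12:85473890-85477273, + strand), the AP-1 subunit that cannot pair with itself, fell in WT. In WT it was at 19.0 and 19.4 CPM at day 0 and at 9.88 and 4.82 CPM at day 5. In KO it was at 10.1 and 8.26 CPM at day 0 and at 5.89 and 8.14 CPM at day 5. The days did not overlap in either genotype, but in KO the lowest day 0 library and the highest day 5 library were nearly level. The WT change was -1.35 on the log2 scale (SE 0.33, edgeR adjusted p = 0.00446) and was called under all 20 alternatives, with values from -1.97 to -0.92. The KO change was -0.40 (SE 0.33, adjusted p = 0.328) and was called only with an offset for GC content and exon length (-0.89, adjusted p = 0.0376).

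*Jun* (chr4:95049034-95052222, - strand), the main partner of Fos, was sparse at day 0, with counts of 0 and 7 in WT and 3 and 7 in KO. At day 5 it had 22 and 12 counts in WT and 23 and 12 in KO. The CPM were 0 and 1.58 in WT and 0.257 and 1.28 in KO at day 0, and 3.88 and 2.89 in WT and 4.23 and 2.27 in KO at day 5. All 4 libraries of day 5 were above all 4 of day 0. Like *Nr4a2*, *Jun* reached 10 counts in no day 0 library and passed the filter through day 5, where it is high. The log2 fold change was 2.21 in WT (SE 0.96, edgeR adjusted p = 0.0750, not called) and 2.31 in KO (SE 0.90, adjusted p = 0.0490). The KO call held under 8 of 19 alternatives, and was lost without KO day 0 replicate 1 or without any 1 library of day 5. It was also lost with the replicate block (2.35, edgeR adjusted p = 0.0507), library totals only, DESeq2, thinning, and a GC and length offset with or without the block. The WT change was called under 5 of 19 alternatives. Without the filter, an alternative counted among these, the changes were 2.19 in WT and 2.27 in KO. As for *Nr4a2*, the p-values of that fit are not set beside those of the main fit. With replicate 1 or 2 of day 0 left out, the change was 1.11 or 7.41 in WT, the latter fitted against a library at 0 and no bound, and 1.34 or 3.56 in KO.

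*Junb* (chr8:84974484-84978718, - strand), a Jun protein with weaker activation than Jun itself, had no called culture change. It was at 4.11 and 3.84 CPM in WT and 3.69 and 4.40 CPM in KO at day 0, and at 5.82 and 3.13 CPM in WT and 4.599 and 6.63 CPM in KO at day 5. The log2 fold change was 0.20 in WT (95% interval -0.72 to 1.11) and 0.49 in KO (-0.37 to 1.34). *Jund* (chr8:70698949-70700616, + strand), the Jun protein that most cells keep at a steady level, had 6 to 15 counts per library. It was at 1.25 and 1.36 CPM in WT and 1.03 and 2.20 CPM in KO at day 0, and at 2.65 and 1.69 CPM in WT and 2.02 and 1.70 CPM in KO at day 5. Its log2 fold change was 0.75 in WT (-0.62 to 2.12) and 0.30 in KO (-0.98 to 1.58), so a 2-fold rise lay within both intervals.

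*Jun* and *Jund* are single-exon genes. Of their exon bases, 232 of 3189 in *Jun*, 877 of 1668 in *Jund* and 173 of 2301 in *Junb* lie inside exons of a gene on the other strand (*Junos*, *Gm11175* and *Prdx2*), and the strand setting of the counting was not given, so reads of such pairs may not have been told apart. The other 7 members had no such overlap.

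*Fosb* (chr7:19302696-19310051, - strand), a Fos relative that also pairs with Jun proteins, had no count in any of the 4 WT libraries. In KO it had 5 and 6 counts at day 0 and 1 and 2 counts at day 5, or 0.429 and 1.10 CPM and then 0.184 and 0.379 CPM. The ratio of day 5 to day 0 in KO was 0.435 with an exact 95% counting interval of 0.0780 to 1.65. At day 0 the KO libraries pooled 11 counts against 0 in WT. Set against a floor of 3 counts over the WT group, the ratio was 2.15. This ratio leaves out the counting error of the 11 counts, so it is not a lower limit. In the fit without the filter its day 0 difference had an adjusted p of 0.525, so it was not called.

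**Figure D3:**
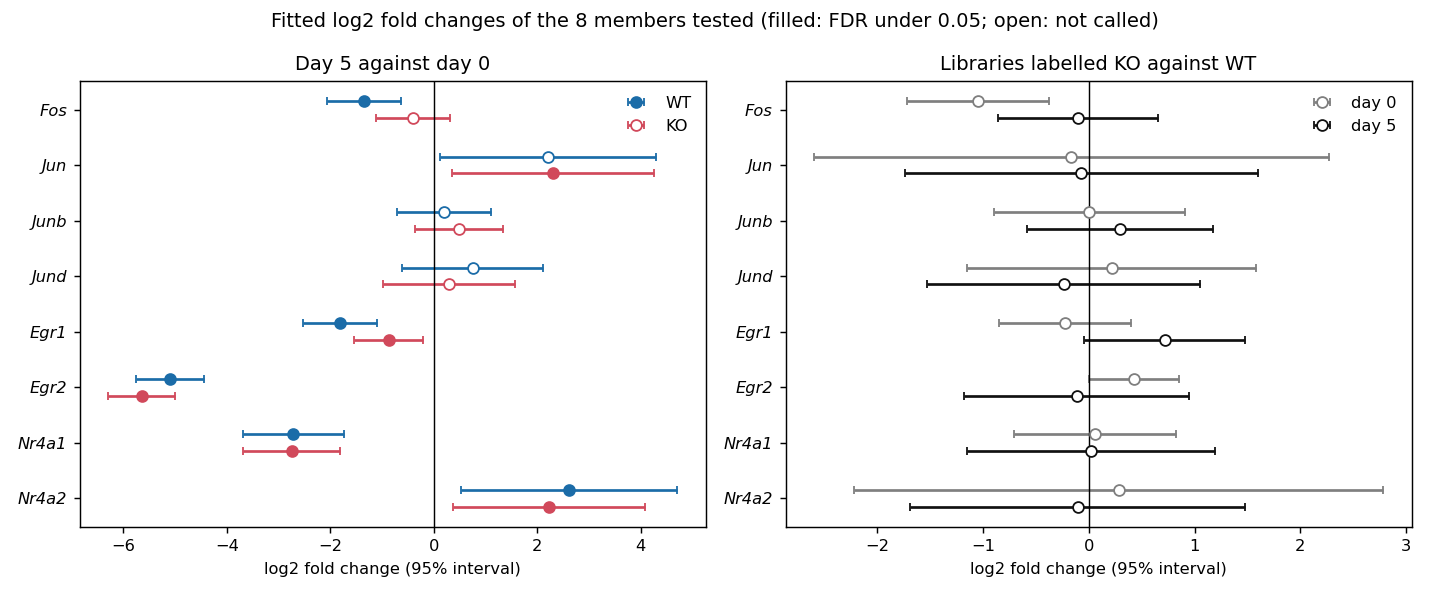
Points are edgeR log2 fold changes of the 8 members tested with 95% intervals, for day 5 against day 0 in each genotype (left) and for KO against WT at each day (right), filled where the adjusted p is under 0.05. On the left, *Egr2* lies at -5.10 in WT and -5.64 in KO, *Nr4a1* at -2.71 and -2.75, and *Nr4a2* at 2.61 and 2.23. On the right no point is filled, and *Fos* at day 0 lies farthest from 0, at -1.05.

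The summed markers of myeloid and of dendritic cells and the B-cell marker *Cd79b* were lower at day 5, as were the members that fell. Only 2 of the 7 myeloid, 1 of the 3 dendritic and 1 of the 6 B-cell markers were tested. All of these were called lower in WT, and in KO all but 1 myeloid marker. The CD8 T-cell markers were lower as well, at 13034 to 14384 CPM at day 0 and 8696 to 10084 CPM at day 5, with 4 of 6 called lower in WT and 2 of 6 in KO. The myeloid markers (*Lyz2*, *Csf1r*, *Itgam*, *Cd14*, *Adgre1*, *S100a8*, *S100a9*) summed to 10.4 to 19.0 CPM at day 0, with *S100a9* at 0 in all 4 libraries of that day, and to 4.06 to 5.87 CPM at day 5. The dendritic cell markers (*Itgax*, *H2-Aa*, *Flt3*) summed to 2.26 to 7.71 CPM at day 0 and to 0.184 to 0.529 CPM at day 5, with *Itgax* at 0. Of the B-cell markers, *Cd79b* was at 118 to 164 CPM at day 0 and at 66.7 to 83.3 CPM at day 5, whereas *Ms4a1* was at most 0.367 CPM in any library. The CD4 T-cell markers summed to 0.226 to 2.20 CPM at day 0 and 2.41 to 2.998 CPM at day 5. NK-cell markers summed to at most 1.43 CPM and erythroid markers to at most 0.678 CPM in any library. The part of other cells in the falls of *Egr1*, *Egr2*, *Nr4a1* and *Fos* was not tested, and in bulk RNA fewer cells of a type and less RNA per cell cannot be told apart.

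The genotype comparison at day 0 asked whether these genes differed between cells labelled KO and WT before culture. No tested member was called, where 1.8% of all tested genes were. At an unadjusted p under 0.05 there were 2 of the 8, *Fos* and *Egr2*, beside 1742 of all 12597 tested genes, and DESeq2 called 0. *Fos* was about 2-fold lower in KO, with both KO libraries (10.1 and 8.26 CPM) below both WT libraries (19.0 and 19.4 CPM). Its log2 fold change was -1.05 (SE 0.31, 95% interval -1.72 to -0.37, edgeR adjusted p = 0.140), and it was called in none of 19 alternatives (adjusted p 0.0700 to 0.397). *Egr2* was 1.35-fold higher in KO (log2 fold change 0.43, SE 0.20, edgeR adjusted p = 0.357), again without overlap of the libraries. Over all 10 members the 2 genotypes did not overlap for 2 higher genes (*Fosb*, *Egr2*) and 2 lower ones (*Fos*, *Egr1*), where 21.7% of all tested genes lay higher without overlap and 21.7% lower. *Cd79b* was at 122 and 118 CPM in WT and at 141 and 164 CPM in KO in the same libraries. Other B-cell markers rested on few reads and had lower means in KO, with overlapping libraries for *Cd79a* and *Pax5* but not *Blnk*, of 1.67 and 1.22 CPM (*Cd79a*), 0.655 and 0.459 CPM (*Pax5*) and 0.381 and 0.178 CPM (*Blnk*) in WT and KO. The myeloid sums overlapped, at 10.4 to 19.0 CPM in WT and 10.6 to 14.9 CPM in KO.

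For the other members at day 0 the intervals of the KO against WT difference were wide. *Egr1* had a log2 fold change of -0.22 (95% interval -0.85 to 0.40), *Nr4a1* 0.06 (-0.70 to 0.82), *Junb* 0.00 (-0.90 to 0.91) and *Jund* 0.22 (-1.15 to 1.58). The sparse genes *Jun* (-0.16, -2.60 to 2.27) and *Nr4a2* (0.28, -2.22 to 2.78) allowed differences of over 4-fold either way. A call missed at these intervals does not show equal levels.

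At day 5 no tested member was called between the genotypes, where 1.63% of all tested genes were, and no member had an unadjusted p under 0.05. DESeq2 also called 0. *Egr1* had the largest difference, with both KO libraries (7.73 and 10.2 CPM) above both WT libraries (3.53 and 7.71 CPM), though the nearest pair almost touched. Its log2 fold change was 0.72 (SE 0.35, 95% interval -0.04 to 1.48, edgeR adjusted p = 0.386). *Fos* was at -0.10 (-0.86 to 0.66), *Egr2* at -0.12 (-1.18 to 0.95), *Nr4a1* at 0.02 (-1.15 to 1.19) and *Junb* at 0.30 (-0.58 to 1.17). *Fosb* and *Egr1* lay higher in KO without overlap and no member lay lower, where 25% of all tested genes lay higher and 20.7% lower without overlap.

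Whether the culture changes differed between the genotypes was tested as an interaction, in which the genotype difference of day 0 was subtracted from that of day 5. No tested member was called, where 0.159% of all tested genes were (0.0794% in each direction), none had an unadjusted p under 0.05, and DESeq2 called 0. The largest were *Fos* (0.95, SE 0.47, edgeR adjusted p = 0.438) and *Egr1* (0.94, SE 0.45, adjusted p = 0.426), both in the direction of a smaller fall in KO. *Egr2* was at -0.54 (SE 0.54, adjusted p = 0.741) and *Nr4a1* at -0.04 (SE 0.66). *Fos* passed the threshold in WT and not in KO, and this test of the difference did not call it. The comparisons share libraries with each other, so their values for a gene are not independent.

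Partners and regulators of the members were counted by list. Of 14 other basic leucine zipper genes that pair or compete with Fos and Jun, 9 were tested, and in culture 3 rose and 2 fell in WT and 4 rose and 3 fell in KO, with medians of -0.18 and -0.16 on the log2 scale. For this and each list below, the shares over all tested genes were 24.7% higher and 23.6% lower in WT and 26.2% and 24% in KO, and no list is read as standing apart from them. *Fosl2*, a Fos relative, went from 5.81 to 21.8 CPM in WT (log2 fold change 1.93, edgeR adjusted p = 3.11e-04) and from 10.1 to 27.5 CPM in KO (1.48, adjusted p = 8.91e-04). *Batf*, an AP-1 factor of activated lymphocytes, went from 58.1 to 91.9 CPM in WT and from 63.2 to 139.8 CPM in KO, a change of 0.66 and 1.15 on the log2 scale (adjusted p = 0.00409 and 5.47e-05). The WT call of *Batf* was lost without WT day 0 replicate 2 (0.52, adjusted p = 0.0549) and with a GC and length offset (0.33, 0.106), also with the replicate block (0.34, 0.0928). *Bach2*, a repressor that competes for AP-1 sites, fell from 86.0 to 44.6 CPM in WT (-0.95, adjusted p = 0.00176) and from 82.2 to 41.0 CPM in KO (-1.01, adjusted p = 0.00101). *Mafg*, a small Maf protein, rose in both genotypes by 1.40 and 1.18 on the log2 scale. No gene of this list was called between genotypes on either day or in the interaction.

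Of the Egr relatives and corepressors, *Egr3* and *Egr4* had at most 1 count in any library. *Nab1* and *Nab2* encode corepressors that bind Egr proteins, and both fell in both genotypes. *Nab1* went from 43.3 to 19.0 CPM in WT (log2 fold change -1.19, edgeR adjusted p = 5.00e-04) and from 39.9 to 19.1 CPM in KO (-1.07, adjusted p = 8.53e-04). *Nab2*, named after its values were seen, was at 3.67 to 7.91 CPM at day 0 and at 2.65 to 3.37 CPM at day 5.

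Among 31 other immediate early genes, 30 were tested, and in culture 7 rose and 12 fell in WT and 8 rose and 15 fell in KO, with medians of -0.44 and -0.80 on the log2 scale. The anti-proliferative gene *Btg1* fell from 325 to 65.5 CPM in WT (log2 fold change -2.31, edgeR adjusted p = 4.05e-08) and from 318 to 50.9 CPM in KO (-2.64, adjusted p = 1.12e-08). *Klf2*, a factor of resting T cells, fell from 43.7 to 9.93 CPM in WT (-2.16) and from 47.3 to 7.65 CPM in KO (-2.62). *Myc*, the growth regulator, rose from 153 to 540 CPM in WT (1.82, adjusted p = 6.41e-06) and from 104 to 461 CPM in KO (2.15, adjusted p = 1.34e-06), and *Ier3*, a survival gene, rose from 3.80 to 26.6 CPM in WT (2.81) and from 3.70 to 36.0 CPM in KO (3.23).

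Between the genotypes at day 0, 3 of those 30 genes were called, where 0.913% of all tested genes were called higher and 0.889% lower. *Rgs1*, which damps signals from G protein-coupled receptors, was at 29.7 CPM in KO and 10.2 CPM in WT (log2 fold change 1.55, SE 0.22, edgeR adjusted p = 0.00340). *Btg2*, a relative of *Btg1*, was at 445 and 311 CPM (0.52, adjusted p = 0.0449). *Nfkbia*, the inhibitor of NF-kB, was lower in KO, at 80.9 CPM against 158 CPM in WT (-0.97, adjusted p = 0.0357). The *Rgs1* call was lost without either WT library of day 0 (adjusted p up to 0.0778). The calls of *Btg2* and *Nfkbia* were lost without any 1 library of day 0 and without either KO library of day 5 (adjusted p up to 0.355 and 0.254). That of *Btg2* was also lost with the replicate block (0.0550) and thinning (0.0583), and that of *Nfkbia* with library totals only (0.0604) and with a GC and length offset (0.0811, and 0.0718 with the block). At day 5, 1 of the 30 was called, *Klf6*, a zinc finger factor, at 1164 CPM in KO and 698 CPM in WT (0.74, adjusted p = 0.0286), where 1.31% of all tested genes were called higher. It was lost without either WT library of day 0, either WT library of day 5 or either KO library of day 5 (adjusted p up to 0.190).

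All 20 upstream activators were tested, the kinases and transcription factors that turn immediate early genes on, and in culture 4 rose and 8 fell in each genotype. *Crem*, which encodes a family of factors that bind the cAMP response element, some of them repressors, rose from 14.3 to 159 CPM in WT (log2 fold change 3.48, edgeR adjusted p = 4.67e-09) and from 24.5 to 166 CPM in KO (2.76, adjusted p = 1.55e-08). *Map2k1*, the kinase MEK1, rose from 15.5 to 43.1 CPM in WT (1.47) and from 16.9 to 29.8 CPM in KO (0.82, lost with the replicate block and GC offset, adjusted p = 0.0553). *Elk4* and *Mkl1*, partners of serum response factor at the CArG box, fell in both genotypes, *Elk4* from 40.2 to 20.03 CPM in WT and from 41.3 to 15.5 CPM in KO, and *Mkl1* from 20.2 to 9.21 CPM in WT and from 20.4 to 8.69 CPM in KO. *Crem* was the 1 gene of this list called between genotypes at day 0 (0.78, SE 0.17, adjusted p = 0.0374), where 0.913% of all tested genes were called higher. That call held under 8 of 19 alternatives and was lost without any 1 library of day 0 or either KO library of day 5 and under 5 other settings (adjusted p up to 0.291), and no gene of the list was called at day 5.

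Of 11 genes known as targets of Egr2, Nr4a or AP-1 proteins in T cells, 9 were tested, and in culture 6 rose and 2 fell in WT and 5 rose and 2 fell in KO. *Il2ra*, the high-affinity IL-2 receptor chain, rose from 2.48 to 1945 CPM in WT (log2 fold change 9.65, SE 0.31, edgeR adjusted p = 1.67e-10) and from 5.52 to 1804 CPM in KO (8.24, SE 0.27, adjusted p = 1.78e-10). *Tnfrsf9*, the costimulatory receptor 4-1BB, rose from 15.7 to 2973 CPM in WT (7.55) and from 19.9 to 3073 CPM in KO (7.25), and *Fasl*, the ligand of the death receptor Fas, from 2.49 to 475 CPM (7.47) and from 3.72 to 424 CPM (6.82). With low levels at day 0, the size of such rises moved with the settings. Over the alternatives *Fasl* in WT ran from 6.79 to 9.42 and *Il2ra* in KO from 7.93 to 8.94. *Dgka*, a lipid kinase that limits receptor signaling, fell from 820 to 243 CPM in WT (-1.76) and from 589 to 277 CPM in KO (-1.09). *Nrn1*, a gene raised in anergic T cells, had 1 to 9 counts per library at day 0, and at day 5 it was lower in KO, at 89.6 CPM against 159 CPM in WT (-0.82, adjusted p = 0.0193), where 0.318% of all tested genes were called lower. That call was lost without any 1 library of day 5 (adjusted p up to 0.261) and with a GC and length offset (0.0546, and 0.0579 with the replicate block). *Il2*, named after its values were seen, was the 1 gene of this list called between genotypes at day 0, where 0.913% of all tested genes were called higher. It had 68 and 50 counts in KO and 1 and 2 in WT. Library totals were 11117971 and 5120244 in KO and 5334783 and 4223381 in WT. No WT library of day 0 reached 10 counts, so the call rests on KO, where the gene is high. Its fold change and its calls under the alternatives are not given here.

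Heat shock genes, like immediate early genes, respond to stress and handling of cells. Of 13 listed, 10 were tested, and in culture 3 rose and 3 fell in WT and 4 rose and 2 fell in KO. *Hspa1b* was at 0 in all 8 libraries and *Hspa1a* had at most 2 counts, and since they are near-identical copies and reads without a unique position were not counted, these counts do not show how far either gene was expressed. *Hsp90ab1*, a constitutive chaperone, rose from 1106 to 2916 CPM in WT (log2 fold change 1.40, edgeR adjusted p = 9.19e-07) and from 974 to 2478 CPM in KO (1.35, adjusted p = 1.13e-06). *Hsph1* fell from 56.2 to 25.6 CPM in WT (-1.12, adjusted p = 0.00486) and from 39.9 to 19.5 CPM in KO (-1.04, adjusted p = 0.00763), calls lost without WT day 0 replicate 2 (adjusted p = 0.0922) and without KO day 5 replicate 2 (0.0633). The 2 WT libraries of day 0 differed here: *Hsph1* was at 37.4 and 75.1 CPM in replicates 1 and 2, *Dnajb1* at 74.1 and 152 CPM and *Hspa8* at 1008 and 1817 CPM, and without replicate 2 the WT change of *Hsph1* was -0.54. KO at day 0 was at 42.6 and 37.3 CPM (*Hsph1*), 61.9 and 65.5 CPM (*Dnajb1*) and 1077 and 1286 CPM (*Hspa8*), below WT replicate 2 in each. *Dnajb1* and *Hspa8* were named after their values were seen. The WT calls of *Fos*, *Egr1*, *Egr2* and *Nr4a1* were also made without that library. A part of handling in their falls, also one shared by all libraries of day 0, was not tested. No heat shock gene was called between genotypes on either day.

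**Figure D4:**
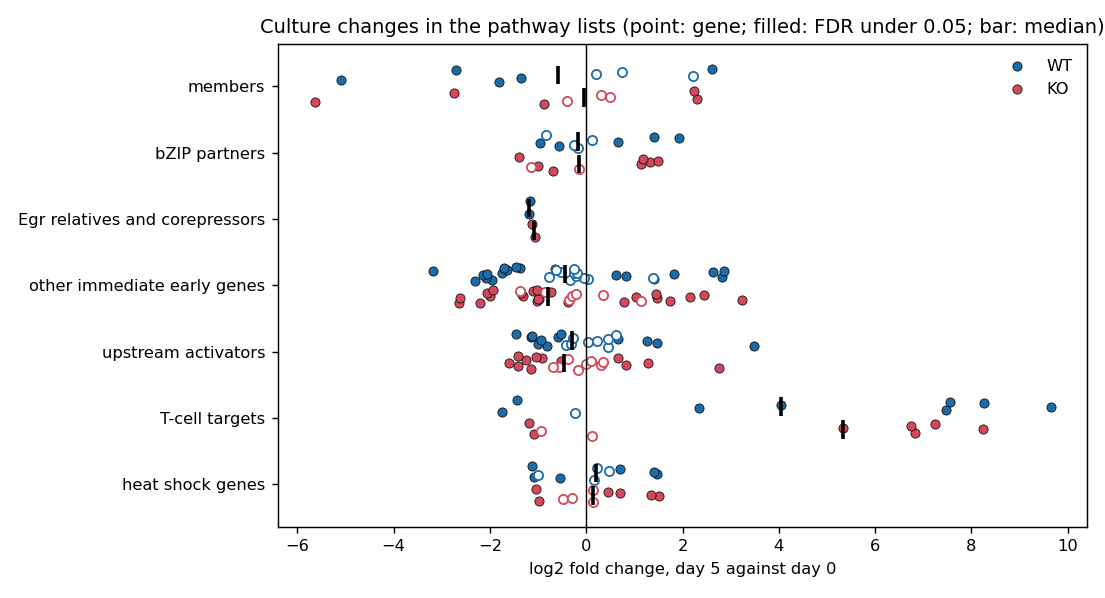
Each point is the edgeR log2 fold change of 1 tested gene, day 5 against day 0, in WT or KO, by gene list, filled where the adjusted p is under 0.05, with a bar at the list median. The members spread from -5.64 to 2.61, and the T-cell targets reach 9.65, with medians of 4.04 in WT and 5.33 in KO. The medians cover tested genes only. A gene that is high at day 5 alone enters through that day, so the lists are not compared by their medians.

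The genes whose log2 CPM followed a member most closely over the 8 libraries were named by Pearson's r, as a description only, since the 8 points form 2 clusters by day and share their libraries. Among 8003 or 8004 tested genes with a mean of at least 10 CPM, those most like *Egr1* were *Rcn3* (0.99), *Adck3* (0.99) and *RP24-235B15.7* (0.98). Those most like *Nr4a1* were *Snapc3*, *Ash1l* and *Pgap1* (0.99 each). Those most like *Fos* were *Cops8* (0.97), *Tfam* (0.96) and *Abhd15* (0.96), and *Abhd15* shared its pattern of means, with 17.5 CPM in WT and 9.91 CPM in KO at day 0 and 7.15 and 6.45 CPM at day 5. For *Junb* they were *Mettl15* (0.93), *Cdk9* (0.90) and *Fbxo6* (0.90).

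The members are rich in G and C, with 47.9% to 67.1% GC in their exons, and 8 of the 10 lie above the median of 49.0% over tested genes. Over all tested genes the median WT culture change was 0.10 on the log2 scale for genes under 45% GC and -0.28 for genes of 55% to 60% GC, while in KO the same bands were at -0.12 and -0.03. The median interaction ran from -0.19 in the lowest band to 0.29 in the highest, and was 0.15 in the band of *Fos* (50% to 55%) and 0.27 in that of *Egr1* (55% to 60%). With an offset for GC content and exon length, *Egr1*, *Egr2* and *Nr4a1* were called lower in both genotypes, *Fos* was called lower in KO as well (-0.89, adjusted p = 0.0376), and the 3 called rises no longer passed the threshold: *Nr4a2* in WT (2.41, adjusted p = 0.0514, beside 2.61 without the offset) and KO (1.99, 0.0615, beside 2.23) and *Jun* in KO (1.89, 0.0865, beside 2.31). The interactions of *Fos* and *Egr1* were 0.79 and 0.60, beside 0.95 and 0.94 without the offset.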

How the data were processed

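Total RNA of sorted CD8+ T cells had been extracted with Trizol and a Direct-zol kit, made into libraries with an NEBNext Ultra RNA kit and read as 50 bp on a HiSeq2500, per the labels. For each of the 8 libraries the authors deposited its own list of gene symbols with raw counts, neither normalized nor pooled. The submitters' processing notes name HISAT2 2.1.0, HTSeq 0.11.1 and mm10 (GRCm38), and the annotation and strand setting are not given in the sources used here. Summary lines of the counting program were left out of the totals. Reads assigned to genes made up 21.2% to 24.5% of all records, those in no gene 27.5% to 33.7% and those aligned to several places 31.8% to 37.4%. Counting intervals and floors (3 counts) cover counting error only. Replicates differed by 4.69 to 9.40 times the sampling variance.

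Differential expression was tested with edgeR 4.0.16 (quasi-likelihood, TMM factors, filter at a minimum count of 10) in R 4.3.3, on all 8 libraries with a mean per group, and p-values were two-sided and adjusted by the Benjamini-Hochberg method over 12597 genes, with calls under 0.05. The biological coefficient of variation was 15.0%. Alternatives were other scaling (DESeq2 size factors, library totals), no filter or a stricter one, only the libraries compared, replicate blocks, another form of the edgeR test, DESeq2 1.42.0, an offset for GC content and exon length, thinning, and each library left out in turn. The script was tested on simulated data. Coordinates, exon lengths and GC content came from GENCODE (GRCm38), with GC content for 96.9% of tested genes, and promoter sequences from RefSeq (GRCm38.p6).

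All 10 members were named with every library's value. From each list at most the 4 called genes of largest change in each direction were eligible, if their higher group reached 10 CPM, and for *Fos*, *Junb*, *Egr1* and *Nr4a1* the 3 genes of highest correlation. A listed marker is not reported here. The members and lists were chosen with earlier results of these data known.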

Additional observations from a re-analysis of the deposited data

Results flagged for a closer look

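*Satb1*, the gene named in the labels, had a genotype difference that turned between the days: 0.51 on the log2 scale at day 0 and -0.84 at day 5, with an interaction of -1.34 (edgeR adjusted p = 0.0269). The interaction was called under 11 of 19 alternatives (adjusted p up to 0.230), and was lost without either WT library of day 0, KO day 0 replicate 1, WT day 5 replicate 2 or either KO library of day 5, and with a GC and length offset (-1.16, adjusted p = 0.102, and 0.108 with the replicate block).

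For 9 of the 88 tested members and listed genes (10.2%) both KO libraries lay on one side of both WT libraries at day 0 and on the other side at day 5. The same held for 1047 of all 12597 tested genes (8.31%), so the count is not read as a result about them, and the interactions below belong to genes chosen by this pattern. Among the members this was *Egr1*, with an interaction of 0.94 (edgeR adjusted p = 0.426). Among the listed genes it was *Nrn1* (-1.52, adjusted p = 0.343), *Dusp2*, a phosphatase that acts on MAP kinases (1.05, adjusted p = 0.237), *Map2k1* (-0.65, adjusted p = 0.332) and *Atf2*, a partner of Jun (-0.52, adjusted p = 0.342). The other 4, named after their values were seen, were *Ndrg1* (1.29, adjusted p = 0.188), *Irf1* (-0.78, adjusted p = 0.304), *Nfatc3* (-0.51, adjusted p = 0.343) and *Batf2* (1.19, adjusted p = 0.499). None of the 9 interactions was called, and *Egr1* and *Batf2* had unadjusted values above 0.05.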

How the results depend on the processing

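The results were recomputed under 20 alternatives, 8 of which left out 1 library each. No member was called between genotypes on either day or in the interaction under any of them. The count of called members for culture in WT, 5, ran from 4 to 6 with 1 library left out. In KO, also 5, it was 3 with library totals only, 3 with at least 5 CPM in 2 libraries, 2 with DESeq2, 3 with the replicate block and an offset for GC content and length, and 3 with libraries thinned to the smallest total. With 1 library left out it ran from 2 to 5, being 2 without either KO library of day 5 and 3 without KO day 0 replicate 1 or either WT library of day 5. The calls lost were those of *Jun*, *Nr4a2* and *Egr1*, while *Egr2* and *Nr4a1* were called under all 20. Replicate numbers were not treated as pairing the samples. The correlation of same-numbered deviations between the days was 0.12 in WT and 0.22 in KO. Between groups of unlike genotype it ran from -0.07 to 0.001. The replicate block gave 5 called members in WT and 4 in KO, and a block within genotype 5 and 5. Over all genes the block within genotype called 55 in the interaction, beside 20 without a block. Over all genes, calls between genotypes numbered 227 at day 0 (160 to 434 under other settings, 38 to 276 with 1 library left out), 205 at day 5 (106 to 418, and 32 to 249) and 20 in the interaction (12 to 154, and 0 to 41), so the shares given beside the members' counts move with these choices. Over the members and the named genes, recomputed single-gene comparisons kept their side of the threshold in 2202 cases, lost a call in 135 and gained one in 6, and no called value changed sign (0 reversed). The interaction could not be fitted on only the libraries of a comparison. Depth limits values that rest on fewer than 10 counts in a library: *Fosb* throughout, *Nr4a3* in 7 of 8 libraries, *Jund* in 4 of 8, *Jun* and *Nr4a2* at day 0 (*Nr4a2* also in 1 library of day 5), *Egr2* at day 5 in 3 of 4, and *Nr4a1* in 1 WT library of day 5.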
